A study of Mus musculus with 2 samples.

Results

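The 6 genes of the miR-99/100 and miR-125 families counted here are Mir99a, Mir99b, Mir100, Mir125a, Mir125b-1 and Mir125b-2. They were taken by name from 1973 microRNA genes, and all 6 were found. Small RNA of embryonic mouse liver was sequenced as 2 libraries, numbered by the labels as biological replicates 1 and 2. The embryos were of the strain B6NCrl and 13.5 days old. Each library came from its own biosample of pooled male and female embryos, described as healthy, and the labels refer both biosamples to 1 donor record. There is 1 group and no treatment, so the comparisons run between genes, between loci and between the 2 libraries.

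MicroRNAs are short RNAs that are cut from a hairpin precursor and guide silencing proteins to messenger RNAs, mainly through the seed near their 5′ end. In mammals the miR-99/100 and miR-125 families sit together, with a let-7 gene between them, at 3 loci that arose by duplication. In blood formation, miR-125 microRNAs are known as regulators of stem and progenitor cells, and raised miR-125 levels expand these cells in mice. The miR-99/100 microRNAs are known to repress Mtor, a growth kinase. The midgestation liver forms most of the blood of the embryo, beside its own immature hepatocytes, vessels and mesenchyme. The libraries were made from whole tissue, so a level cannot be assigned to stem cells, and fewer cells of a type and less RNA per cell cannot be told apart.

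The mature sequences are shown first, because they set both the family of each gene and which reads could be assigned to it. They are from RefSeq (GRCm38.p6), run 5′ to 3′, and the capitals mark the seed, bases 2 to 8. All 6 genes matched that table. The 5p arms are as follows.
miR-99a-5p (Mir99a): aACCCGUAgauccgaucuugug
miR-99b-5p (Mir99b): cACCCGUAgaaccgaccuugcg
miR-100-5p (Mir100): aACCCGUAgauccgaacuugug
miR-125a-5p (Mir125a): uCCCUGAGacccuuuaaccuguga
miR-125b-5p (Mir125b-1 and Mir125b-2): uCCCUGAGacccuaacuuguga
The 3 miR-99/100 arms share 1 seed and the miR-125 arms share another. Counting from 1 at the 5′ end, miR-99a-5p and miR-100-5p are set apart by the single substitution U16A. From miR-99a-5p to miR-99b-5p the substitutions are A1C, U11A, U16C and U21C. The arms miR-125a-5p and miR-125b-5p have their first 13 bases in common, and miR-125a-5p has 24 bases, against 22 in miR-125b-5p.

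Mir125b-1 and Mir125b-2 are copies with an identical 5p arm. The longest word common to both hairpins had 24 bases and held that whole arm of 22 bases, while their 3p arms, of equal length, differ at 5 bases. The longest word common to the hairpins of Mir99a and Mir100 had 16 bases, and that of Mir125a with either copy of Mir125b had 14. For Mir99a, Mir99b, Mir100 and Mir125a, neither arm was found in an annotated hairpin at another locus.

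All values below are counts of reads on the strand of the gene, and CPM are those counts relative to the library's total over all genes, times 1000000. The totals were 2607403 in replicate 1 and 4286742 in replicate 2. Reads that mapped to several places, 36.7% of all reads in replicate 1 and 32.0% in replicate 2, are in no gene's count. A gene row sums both arms of a hairpin. The labelled tissue was checked with marker microRNAs. Mir122, the hepatocyte marker, was the most abundant gene in the mean, and all 5 hepatocyte and all 3 erythroid markers were detected, that is, had at least 10 counts in each library. None of the 5 counted neural markers was detected, and 4 of them had no count. Several of these markers have copies in the genome, among them every neural marker, each a numbered copy such as Mir9-3 or Mir124a-1. Reads that fit several copies are in no count, so the low neural counts cannot check the tissue.

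The miR-99/100 genes were abundant, and Mir99a led all 6 genes. Mir99a had 66441 counts in replicate 1 and 97911 in replicate 2, which is 25482 and 22840 CPM. Its mean was 24161 ± 1868 CPM (SD, n = 2), and it ranked 8 in replicate 1 and 11 in replicate 2 among all genes. Its hairpin lies at chr16:77598936-77599000 (mm10), in an intron of the non-coding host gene Mir99ahg. Mir99b had 24447 and 38693 counts, or 9376 and 9026 CPM, with a mean of 9201 ± 247 CPM. Mir99b (chr17:17830188-17830257) lies in an intron of Spaca6, a gene named for sperm acrosome function. Mir100 had 10826 and 15276 counts, or 4152 and 3564 CPM, with a mean of 3858 ± 416 CPM. Mir100 (chr9:41531425-41531504) lies in introns of the non-coding genes 3110039I08Rik and Gm49317, and an exon of Gm48742 covers it on the opposite strand. The order Mir99a, Mir99b, Mir100 was the same in both libraries with no overlap of values. Mir99a exceeded Mir99b by 2.72-fold in replicate 1 and 2.53-fold in replicate 2. Mir99b exceeded Mir100 by 2.26-fold and 2.53-fold.

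The miR-125 genes were lower than every miR-99/100 gene in both libraries. Mir125a had 2580 and 5463 counts, or 989 and 1274 CPM, with a mean of 1132 ± 201 CPM (SD, n = 2). Mir125a (chr17:17830812-17830879) overlaps an annotated exon of Spaca6. Mir125b-1 had 443 and 726 counts, or 169.9 and 169.4 CPM, with 95% counting intervals of 154 to 187 and 157 to 182 CPM (exact Poisson). Mir125b-2 had 460 and 789 counts, or 176 and 184 CPM, with intervals of 161 to 193 and 171 to 197 CPM. In the mean the copies stood at 170 ± 0.383 and 180.2 ± 5.40 CPM. Mir125b-1 (chr9:41581926-41582002) lies in introns of 3110039I08Rik and Gm49317 and in an exon of Gm28119, and Mir125b-2 lies in an intron of Mir99ahg, where its 3′ end meets C130023A14Rik. All intervals cover counting error only. The 2 copies overlapped in level, and both stood below Mir125a by at least 5.61-fold in each library. Both levels hold for assignable reads only, since a read of their 5p arm fits either locus. Whether the copies would be low with such reads added is not known.

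**Figure D1:**
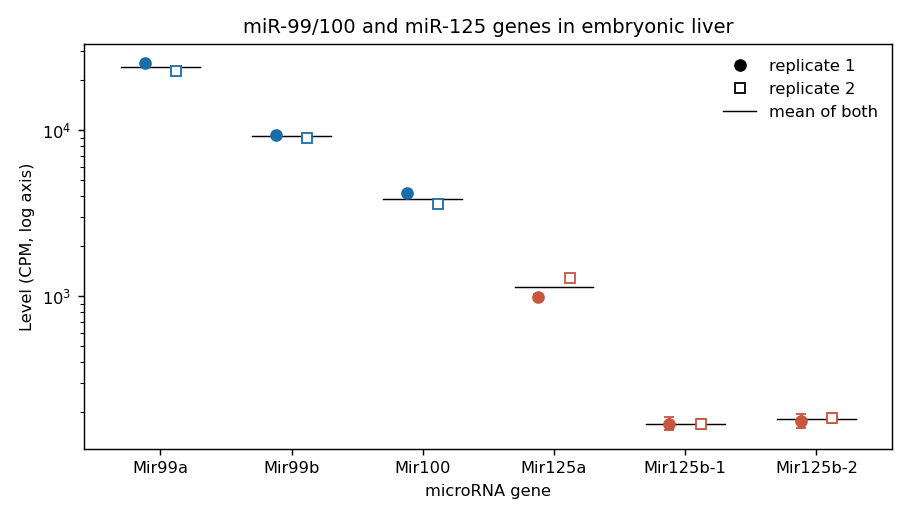
Level of each gene in CPM on a log axis, with filled circles for replicate 1, open squares for replicate 2, black lines for their mean and bars for the 95% counting interval. The miR-99/100 genes (blue) lie between 3564 and 25482 CPM, above the miR-125 genes (red) at 169 to 1274 CPM.

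Together the 6 genes held 4.03% of counts in replicate 1 and 3.71% in replicate 2, a mean of 3.87% ± 0.232 (SD, n = 2). Of these assignable counts, 96.2% ± 0.765 came from the 3 miR-99/100 genes and 3.85% ± 0.765 from the 3 miR-125 genes. The 6 genes were all detected, while 367 of the 1973 genes in the table (18.6%) were. Their median was 2495 CPM, against 150.0 CPM over the 367 detected genes. By mean CPM, Mir20a and Mir21a stood directly above and below Mir99a, at 24782 ± 2622 and 23818 ± 796 CPM, and neither differed from it beyond the spread of the libraries. The neighbours were Mir652 and Mir744 for Mir99b, Mir140 and Mir98 for Mir100, Mir149 and Mir194-2 for Mir125a, Mir363 and Mir34c for Mir125b-1, and Mir675 and Mir363 for Mir125b-2. With 2 libraries of 1 group, likeness could be measured only as closeness in level.

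The 3 loci differed in level, with the chromosome 16 locus highest. Summed over its 2 members, Mir99a and Mir125b-2, it reached 25658 CPM in replicate 1 and 23025 CPM in replicate 2. The chromosome 17 locus, with Mir99b and Mir125a, reached 10366 and 10301 CPM. The chromosome 9 locus, with Mir100 and Mir125b-1, reached 4322 and 3733 CPM. These sums are 62.9% ± 1.04, 26.7% ± 1.49 and 10.4% ± 0.452 of the counts of the 6 genes (SD, n = 2). The order held in both libraries, and the chromosome 16 sum exceeded the chromosome 9 sum by 5.94-fold and 6.17-fold. The miR-99/100 gene made up most of each sum. These sums hold assignable reads only, so those on chromosomes 16 and 9 lack the reads of miR-125b-5p that fit both loci, while the chromosome 17 sum has no shared arm.

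Within each locus the miR-99/100 gene was far above the miR-125 gene, but by unequal factors. On chromosome 16, Mir99a exceeded Mir125b-2 by 144-fold in replicate 1 and 124-fold in replicate 2, a mean log2 ratio of 7.06 ± 0.15 (SD, n = 2). On chromosome 9, Mir100 exceeded Mir125b-1 by 24.4-fold and 21.04-fold, a mean log2 ratio of 4.50 ± 0.15. On chromosome 17, Mir99b exceeded Mir125a by 9.48-fold and 7.08-fold, a mean log2 ratio of 3.03 ± 0.30. The differences between the 3 ratios are larger than the spread between the libraries. The ratios on chromosomes 16 and 9 have a copy of Mir125b below the line, and only the ratio on chromosome 17 compares 2 genes whose arms were each found at 1 locus. Spacing differs too. The hairpins of Mir99b and Mir125a start 624 bases apart, those of Mir99a and Mir125b-2 47337 bases apart and those of Mir100 and Mir125b-1 50501 bases apart.

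Each locus also holds a let-7 gene, from a family that opposes proliferation and whose processing is blocked by the Lin28 proteins. Mirlet7c-1, on chromosome 16, had 96 and 168 counts, or 36.8 and 39.2 CPM. Mirlet7a-2, on chromosome 9, had 392 and 674 counts, or 150.3 and 157 CPM. Mirlet7e has no row of its own here, but 5125 and 8897 reads lay on the opposite strand of Gm25927, an annotated microRNA gene at the position of Mirlet7e on the other strand. This is 1966 and 2076 CPM. If these reads are taken for Mirlet7e, the order at the locus was Mir99b, Mirlet7e, Mir125a in both libraries, and the middle gene exceeded Mir125a by 1.99-fold and 1.63-fold. On chromosome 16 the order among assignable reads was Mir99a, Mir125b-2, Mirlet7c-1. On chromosome 9, Mirlet7a-2 and Mir125b-1 could not be ordered, since the counting interval of their log2 ratio held 0 in both libraries. These let-7 genes and Mir125b copies each have an arm that also stands at another locus. Reads that fit several loci are missing from their counts, so the order of all their reads is not known.

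**Figure D2:**
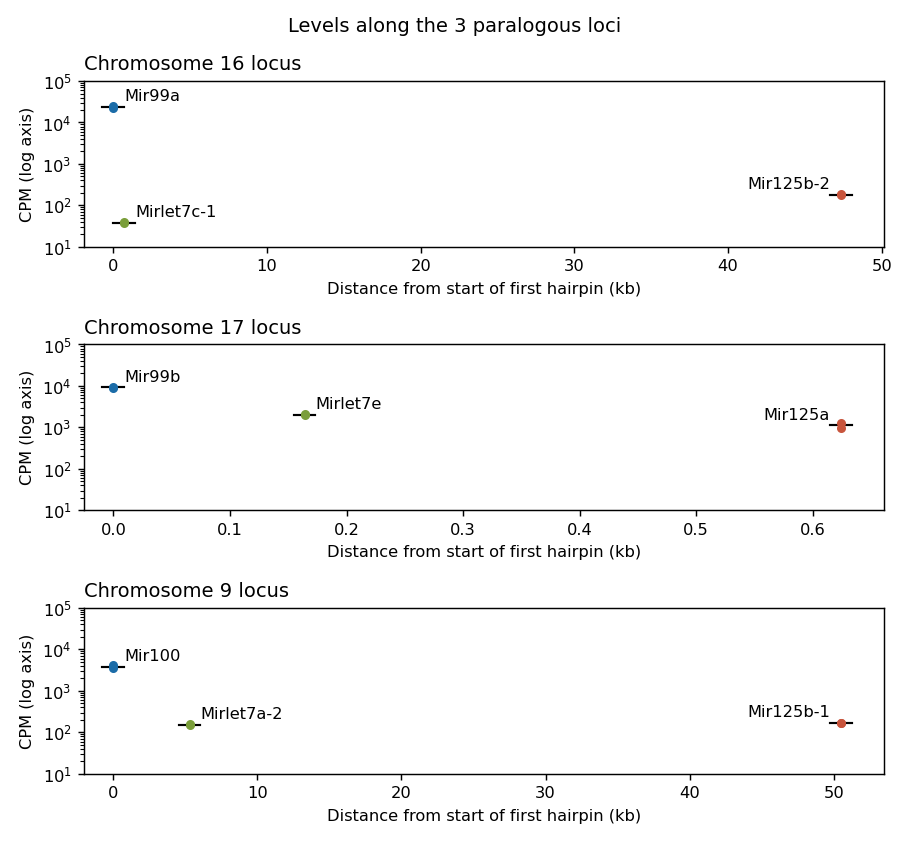
Level in CPM (log axis) against distance in kb from the start of the first hairpin, for the loci on chromosomes 16, 17 and 9, with 1 point per library and a black line at the mean. Among assignable reads the first hairpin is highest at each locus, and the chromosome 17 locus is compact, with its last hairpin starting 0.624 kb from the first.

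Levels at the loci went with whether an arm also stood at another locus. Of the 9 genes, 4 have such an arm, the 2 copies of Mir125b with Mirlet7c-1 and Mirlet7a-2, and their means ran from 38.0 to 180.2 CPM. The other 5, with the reads at Mirlet7e, ran from 1132 to 24161 CPM, so these groups did not overlap. Among detected genes with an annotated arm, 43 with such a shared arm had a median of 53.2 CPM (quartiles 19.5 and 215), against 193 CPM (18.2 and 1774) for 286 without, so these wider groups overlapped. Of all genes with an annotated arm, 40.6% with a shared arm were detected, against 35.3% without. The reads with several places numbered 2819005 in replicate 1 and 4017413 in replicate 2, against 903 and 1515 counts at both Mir125b loci together. How many of these reads were miR-125b-5p is not known from these tables. Their part in the low counts of the copies was not tested.

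The 2 copies of Mir125b were close in level. Mir125b-1 over Mir125b-2 gave a log2 ratio of -0.05 in replicate 1 (95% exact binomial interval -0.25 to 0.14) and -0.12 in replicate 2 (-0.27 to 0.03), with a mean of -0.09 ± 0.05 (SD, n = 2). Both intervals hold 0, so a difference between the copies was not detectable at this depth. The ratio compares reads that could be assigned to 1 locus, and such reads can come from the 3p arms or from ends that run past the shared word. Among 18 pairs of detected genes at different loci that share an annotated arm, the median absolute log2 ratio was 2.32 and the largest 7.12. Only Mirlet7a-1 and Mirlet7a-2 were closer than the Mir125b copies, at 0.02. The hosts of these copies differ, and their miR-99/100 neighbours, Mir100 and Mir99a, stood 6.27-fold apart (Mir99a over Mir100, from the mean log2 ratio).

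**Figure D3:**
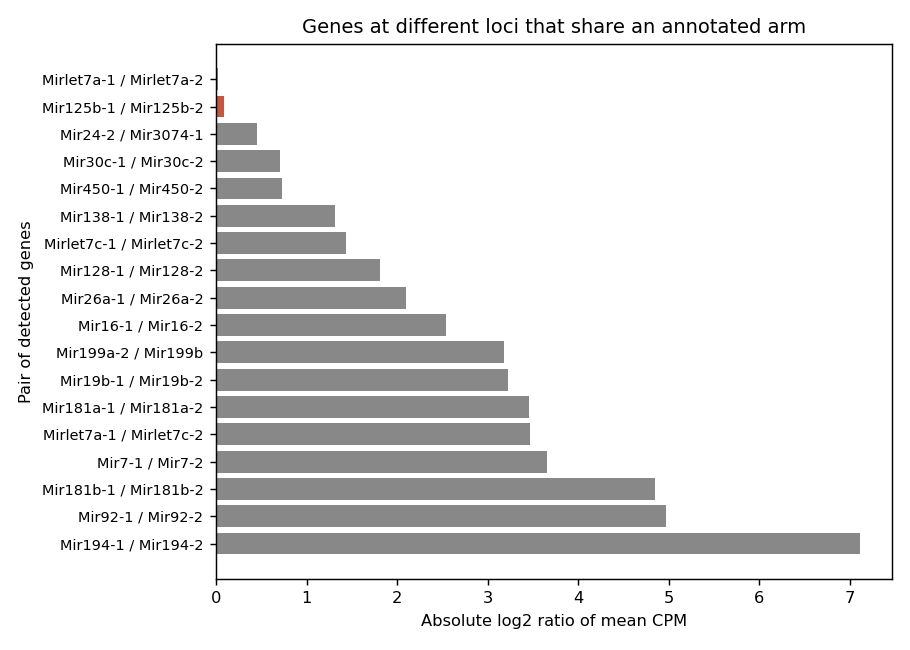
Absolute log2 ratio of mean CPM for the 18 pairs of detected genes that share an annotated arm, sorted from the closest pair at the top. The Mir125b copies (red) are second, at 0.09, against a median of 2.32.

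MicroRNAs with the same seed have many predicted targets in common, and the gene counts were also grouped by seed. The miR-99/100 seed was found in Mir99a, Mir99b and Mir100 and in no other gene of the RefSeq table. Of the counts of these 3 genes, 64.9% ± 0.605 came from Mir99a, 24.8% ± 1.02 from Mir99b and 10.4% ± 0.414 from Mir100 (SD, n = 2). The miR-125 seed was also found in Mir351, Mir6367 and Mir6394. Mir351, a gene on the X chromosome, is printed here to show where it parts from miR-125a-5p.
miR-351-5p (Mir351): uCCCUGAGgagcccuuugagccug
It had 8219 and 15837 counts, or 3152 and 3694 CPM, and exceeded Mir125a by 3.19-fold in replicate 1 and 2.90-fold in replicate 2. Of the counts of the genes with the miR-125 seed, 69.8% ± 0.581 came from Mir351, 23.0% ± 1.34 from Mir125a, 3.48% ± 0.427 from Mir125b-1 and 3.69% ± 0.334 from Mir125b-2. In both groups a gene's count sums both arms, and the 3p arms have other seeds. The shares are therefore of gene counts, not of reads with the seed. Mir6367 and Mir6394 had no count in either library, which allows levels of up to 1.15 CPM (replicate 1) and 0.700 CPM (replicate 2). Mir351 was thus the highest of the genes with this seed, with the reads of miR-125b-5p that fit both loci left out.

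Replicate 1 was then set against replicate 2 for every gene, by an exact binomial test (two-sided) on how its counts divide given the totals, with Benjamini-Hochberg adjustment over 711 genes with a count. This compares 2 libraries of 1 group, not conditions. Of the 6 genes, 4 passed an adjusted p of 0.05, against 20.1% of all 711 genes. Mir99a, Mir99b and Mir100 were higher in replicate 1, as were 11.5% of genes. Mir125a was lower in replicate 1, as were 8.58%. Called genes are more frequent where counts are high: of 149 detected genes with at least 2000 counts in sum, 62.4% were called, and the 4 called genes are among these. The split of all calls turned with the scaling, from 82 higher and 61 lower in replicate 1 to 63 higher and 72 lower with TMM.

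The sizes of these differences were small. Mir125a was lower in replicate 1 by a log2 ratio of -0.37 (95% counting interval -0.43 to -0.30; adjusted p = 1.91e-25, exact binomial test). Mir100 was higher by 0.22 (0.18 to 0.26; adjusted p = 2.80e-32, exact binomial test) and Mir99a by 0.16 (0.14 to 0.17; adjusted p = 1.67e-102, exact binomial test). Mir99b was higher by 0.05 (adjusted p = 2.98e-05, exact binomial test), which was lost with TMM scaling, where the log2 ratio was 0.02 and the adjusted p 0.159 in the exact binomial test. The copies had log2 ratios of 0.005 for Mir125b-1 (-0.17 to 0.18) and -0.06 for Mir125b-2 (-0.23 to 0.11), and neither passed the test (adjusted p = 1.000 and 0.717, exact binomial test). The median absolute log2 difference over the 367 detected genes was 0.17, so Mir125a and Mir100 lay above it and the other 4 below. The SD of the libraries ran from 0.226% of the mean for Mir125b-1 to 17.8% for Mir125a, beside a common biological coefficient of variation of 13.3% from edgeR. The 2 measures are unlike, since the SD includes counting error and the edgeR value is the variation beyond it. For Mir125b-1 the SD of 0.383 CPM is far narrower than its counting interval in replicate 1, 154 to 187 CPM, so it does not show a tight spread.

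**Figure D4:**
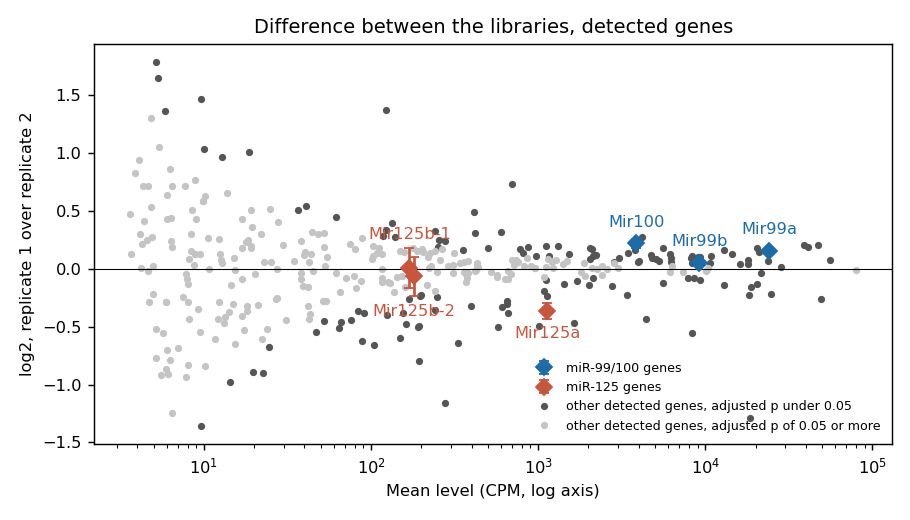
Log2 ratio of replicate 1 over replicate 2 against mean level in CPM (log axis) for the 367 detected genes, with bars for the 95% counting interval of the 6 genes. The miR-99/100 genes (blue) lie above 0, at 0.05 to 0.22, and Mir125a lies below, at -0.37.

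Some marker microRNAs also differed between the libraries. The summed erythroid markers reached 17989 CPM in replicate 1 and 33035 CPM in replicate 2, and this difference came from Mir451a, a red cell microRNA, at 10750 and 26342 CPM. Mir144, made from the same primary transcript as Mir451a, was higher in replicate 1, at 6405 and 5873 CPM (log2 ratio 0.13, adjusted p = 8.05e-17, exact binomial test). Mir486 stood at 834 and 819.5 CPM and did not pass the test. The summed striated muscle markers reached 872 and 522 CPM, almost all from Mir206. The 5 hepatocyte markers summed to 84575 and 85387 CPM, with 0 called higher and 2 called lower in replicate 1. The 5 mesenchymal and smooth muscle markers summed to 20770 and 19960 CPM, with 1 called higher and 1 lower. Of the 3 endothelial markers 1 was called higher, and of the 3 counted leukocyte markers 1 was called lower. Over all 711 genes, 11.5% were called higher and 8.58% lower. The part of cell makeup in the differences of the 6 genes was not tested.

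Other microRNAs with known roles in stem and progenitor cells were described for comparison from a list of 16 genes. Of these, 2 were not analysed here, as they had no row under the listed name. A detected gene named Mir146, at 221.7 CPM, was not taken for the listed Mir146a. Of the 14 counted genes 12 were detected. The median over the 14 was 1044 CPM, against 2495 CPM for the 6 genes. Mir126a, which is also strongly endothelial, was the highest of them at 56024 ± 2091 CPM (SD, n = 2). Mir130a followed at 20498 ± 1297 CPM and Mir22 at 10686 ± 283 CPM, and Mir223, a myeloid microRNA, stood at 10092 ± 100.3 CPM. Mir99a was thus above Mir130a and below Mir126a in both libraries. Of the 14 genes, 6 were called higher and 2 lower in replicate 1, beside 11.5% higher and 8.58% lower over all 711 genes. With TMM scaling these were 4 higher and 3 lower. Most of the 14 genes had at least 2000 counts in sum, and of all detected genes with such counts 62.4% were called before TMM scaling.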

How the data were processed

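Raw read counts per gene were used as deposited. Build mm10 and annotation M4 are named by the labels and by the list of files deposited with each table. Which aligner and counter made the counts is not given in the sources used here. The deposited tables give counts on both strands, on the strand of the gene and on the opposite strand. Rows for unmapped reads, reads with several places and reads in no gene were left out of totals. Same-strand counts were scaled to CPM. GENCODE M21, of the same build, gave names and coordinates; 1894 of 1973 identifiers matched. Mature sequences came from RefSeq; some precursor sequence is not reported here. An arm was taken as shared if the same bases stood in an annotated hairpin at another, non-overlapping locus on either strand.

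Levels are the mean ± SD of 2 libraries. Whether each biosample held separate litters is not given, so the spread measures these samples only. With 2 libraries an exact two-sided p cannot fall below 0.5, and levels and ratios are given without one. Genes were called ordered where the sign held in both libraries and both exact binomial 95% intervals left out 0. The libraries were compared by an exact binomial test, which was tried on simulated counts. That simulation held counting error and set fold changes only, so it does not cover other variation between libraries. The spread came from edgeR 4.0.16 with TMM and an intercept-only design, and DESeq2 1.42.0 gave other size factors. The rest used Python 3.11.15 and scipy 1.17.1. The genes, lists and rules were chosen with earlier results of these data known. The named genes were the 6 genes, the let-7 genes and overlapping rows at their loci, genes with the same seed, the genes next in level, and up to 4 listed stem and progenitor microRNAs. Markers were named beside a result they moved with. The comparisons of levels by shared arm were chosen after values were seen.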

Additional observations from a re-analysis of the deposited data

Results flagged for a closer look

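A signal appeared outside the counts used for the levels: replicate 1 held 5125 reads, and replicate 2 held 8897, opposite Gm25927, which had no count on its own strand, at the position of Mirlet7e in the chromosome 17 locus. Both counts are above the 3 counts that a count of 0 allows. Over the whole table, 10.4% of the counts of both strands in replicate 1 and 10.5% in replicate 2 lay opposite their gene. The 6 genes together had 1 opposite-strand read in replicate 1 and 0 in replicate 2.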

How the results depend on the processing

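The 10 log2 ratios tried, within loci, between copies, between members of a family and of Mir100 over Mir125a, moved by less than 1 SD with counts of both strands or 1 count added. Neither setting could move them much. The 6 genes together had 1 opposite-strand read in replicate 1 and 0 in replicate 2, and each gene had at least 443 counts per library. With both strands counted, larger totals lowered levels: Mir99a to 21639, Mir99b to 8240, Mir125b-1 to 152, Mir125b-2 to 161, and the loci on chromosomes 16, 17 and 9 to 21800, 9254 and 3607 CPM. Mir100 and Mir125a were lowered too, to 3455 and 1014 CPM, in each case by less than 1 SD. With all mapped reads as the total, Mir99a stood at 10531, Mir99b at 4015, Mir100 at 1680, Mir125a at 496, Mir125b-1 at 74.1 and Mir125b-2 at 78.8, and the same loci at 10610, 4511 and 1754 (counts relative to that total, times 1000000). With its let-7 gene added, the chromosome 17 locus reached 12354 CPM. TMM scaling and DESeq2 size factors moved no level by 1 SD. With 2 libraries such factors shift the libraries in opposite directions (TMM factors 1.011 and 0.989), so the mean of both could change little. Leaving out either library gives the other's value, within 1 SD by construction. TMM and DESeq2 scaling left 3 of the 6 genes called in place of 4, without Mir99b, and turned the log2 difference of Mir125b-1 to -0.026 and -0.023, neither called. Calls over all genes ran from 135 to 153. The coefficient of variation was 13.6% over all genes with a count. No paired analysis was possible because only 1 group exists. At this depth the counting interval of the log2 ratio of the Mir125b copies holds 0 in both libraries.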
